A study of Mus musculus with 15 samples.

Results

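The regions described here were acetylated in mouse embryonic stem cells (ESCs) and in neither of 2 kinds of expanded potential stem cells (EPSCs), and they carried no H3K4me1 peak in any of the 3 cell states. They were chosen by the measured peaks themselves. Overlapping or touching H3K27ac peaks of the 3 states were merged into 70360 union regions, of which 37735 (53.6%) had a peak in ESCs only. Of these, 5469 (14.5%) overlapped no H3K4me1 peak and form the set, called H3K4me1-free regions below, and the other 32266 are called H3K4me1-marked. The ESC H3K27ac list was the longest, with 64342 peaks against 32782 in D-EPSCs and 26966 for L-EPSCs. When lists were cut to equal length within a mark by keeping the widest peaks, 403 such regions were left. This cut drops the narrow peaks of the longer lists, so it changes width as well as list length. Over all union regions, whatever their acetylation, 12.4% overlapped no H3K4me1 peak. Free means that no peak was listed, not that no signal was present. The study compared J1 ESCs of the 129SV strain with EPSCs of the same strain in 2 published culture conditions. ESCs were kept in serum with LIF and the inhibitors CHIR99021 and PD0325901. D-EPSCs were kept in N2B27 with serum replacement, LIF, CHIR99021, dimethindene maleate and minocycline hydrochloride. L-EPSCs were kept in a serum replacement medium with LIF, CHIR99021, PD0325901, A-419259, XAV939, JNK inhibitor VIII and SB203580. ESCs were grown on mouse feeder cells or on gelatin, and which of these the ESC libraries came from is not given, whereas both EPSCs were grown without feeders before ChIP. Chromatin immunoprecipitation and sequencing (ChIP-seq) was done on 2 samples per mark and state, but 1 peak list per mark and state was analysed, so no value below has a replicate check, no test was run and read depth is unknown.

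H3K27ac is an acetylation of histone H3 deposited by acetyltransferases at active enhancers and promoters. H3K4me1 is a monomethylation deposited at enhancers, often before they become active, and on the flanks of active promoters, whose centres carry the trimethylated form instead. The pairing of both marks is the usual sign by which an active enhancer is recognised, so an acetylated region outside promoters with no H3K4me1 is an uncommon form.

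Sequences of these regions are shown first, because their base composition and a sequence that many of them share recur below. The first 3 are the central 300 bp (mm9, plus strand) of the widest H3K4me1-free region of each of 3 kinds, with CpG sites in capitals. The kinds are a region within 1 kb of a protein-coding start site, an isolated region with neither H3K4me1 of any state nor EPSC acetylation within 10 kb, and a region flanked by ESC H3K4me1 within 1 kb on either side.
Start site, near Pramel6, chr2:87346852-87347151: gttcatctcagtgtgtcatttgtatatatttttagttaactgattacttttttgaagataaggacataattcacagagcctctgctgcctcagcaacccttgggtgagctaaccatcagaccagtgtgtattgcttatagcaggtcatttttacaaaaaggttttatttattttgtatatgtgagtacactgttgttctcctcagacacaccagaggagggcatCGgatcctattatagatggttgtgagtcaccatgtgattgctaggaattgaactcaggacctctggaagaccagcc
Isolated, in an exon of Ncoa2, chr1:13165122-13165421: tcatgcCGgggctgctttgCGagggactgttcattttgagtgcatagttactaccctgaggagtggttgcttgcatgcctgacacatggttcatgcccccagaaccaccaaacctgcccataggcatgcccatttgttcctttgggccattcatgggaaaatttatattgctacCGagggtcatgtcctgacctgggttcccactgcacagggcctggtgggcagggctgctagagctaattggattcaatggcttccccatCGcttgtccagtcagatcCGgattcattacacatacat
Flanked, near Tuba1a, chr15:98787967-98788266: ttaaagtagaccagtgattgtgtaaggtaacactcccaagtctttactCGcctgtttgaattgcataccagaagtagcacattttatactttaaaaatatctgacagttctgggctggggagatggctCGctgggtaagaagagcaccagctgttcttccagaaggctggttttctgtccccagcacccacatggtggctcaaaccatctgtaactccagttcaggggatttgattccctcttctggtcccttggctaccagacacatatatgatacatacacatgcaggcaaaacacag
These windows held 1, 5 and 2 CpG sites and had GC contents of 40.3%, 52.0% and 45.7%, so even the start-site window was poor in CpG.

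The next 2 stretches, each of 300 bp, come from the regions at the head of the 2 largest groups of H3K4me1-free regions with alike sequence. Within the sequence shared by each group, the 300 bp with the most matches to the letters marked below were taken. Capitals mark CCAATCA, which is bound by the factor NF-Y, and TATAAAA, which is the form of a TATA box. The second stretch is given on the minus strand so that both read the same way.
Group 1, intergenic, plus strand, chr16:16161399-16161698: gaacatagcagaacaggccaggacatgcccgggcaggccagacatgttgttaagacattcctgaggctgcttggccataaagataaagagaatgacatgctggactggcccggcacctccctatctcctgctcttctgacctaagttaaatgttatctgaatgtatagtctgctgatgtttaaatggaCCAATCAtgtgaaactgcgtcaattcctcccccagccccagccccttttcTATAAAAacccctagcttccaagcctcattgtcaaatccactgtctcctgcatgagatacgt
Group 2, outside annotated genes, minus strand, chr15:75788204-75788503: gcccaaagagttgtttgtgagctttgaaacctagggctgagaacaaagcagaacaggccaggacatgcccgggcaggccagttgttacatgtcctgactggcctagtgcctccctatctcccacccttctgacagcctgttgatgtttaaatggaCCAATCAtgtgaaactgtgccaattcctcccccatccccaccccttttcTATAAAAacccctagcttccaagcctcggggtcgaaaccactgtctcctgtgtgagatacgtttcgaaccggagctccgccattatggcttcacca
Both stretches held the CCAAT letters followed by the TATA letters, whose presence the choice of stretch had favoured. The best alignment of the longer cores they were taken from ran over 132 bp with 97.0% identity. That order of boxes is the one found in many promoters.

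The remaining stretches show the motifs that differed most in frequency between H3K4me1-free regions and ESC-only regions with H3K4me1 in ESCs. Each is in capitals within the widest H3K4me1-free region that held it (mm9, plus strand).
CCAAT box, intergenic, chr12:53085226-53085284: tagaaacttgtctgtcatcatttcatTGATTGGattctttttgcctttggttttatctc
AP-1, at the Pramel6 start site, chr2:87347072-87347130: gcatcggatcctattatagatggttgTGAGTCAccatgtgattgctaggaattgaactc
YY1, exon of Nup155, chr15:8077951-8078009: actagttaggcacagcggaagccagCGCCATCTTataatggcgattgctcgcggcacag
SP, intergenic, chr6:35708868-35708926: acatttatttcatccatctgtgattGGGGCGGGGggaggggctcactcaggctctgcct
NRF1, intron of Pik3cb, chr9:98995898-98995956: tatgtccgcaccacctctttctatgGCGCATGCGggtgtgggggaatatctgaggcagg
The CCAAT and AP-1 letters were more frequent in H3K4me1-free regions and the SP and NRF1 letters less frequent. YY1 was outside the rule, which asked of the more frequent motifs that at least 2% of H3K4me1-free regions hold them, and it was added after its values were seen.

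H3K4me1-free regions were narrow. Their median width was 459 bp, with quartiles of 310 bp and 672 bp and a range of 210 to 2907 bp, against medians of 701 bp for H3K4me1-marked ESC-only regions, 910 bp for all union regions and 2806.5 bp for regions acetylated in all 3 states. The share of ESC-only regions that were H3K4me1-free fell with width. It was 24.1% of 5300 regions up to 300 bp wide, 21.5% of 8290 between 300 and 500 bp, 14.7% of 13175 up to 1000 bp, 5.60% of 7912 up to 2000 bp and 0.687% of 3058 wider ones. A narrower region has fewer bases in which to meet an H3K4me1 peak, and the part of this in the trend was not tested. In all, the 5469 regions covered 2.98 Mb.

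**Figure D1:**
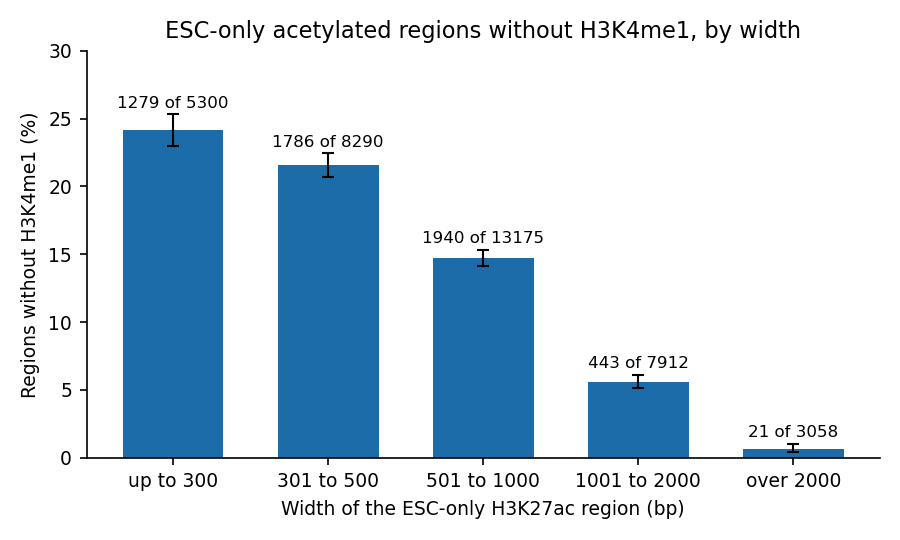
Share of ESC-only H3K27ac regions that overlapped no H3K4me1 peak of any state, by region width in bp; bars are percentages of the regions of that width, error bars 95% Wilson intervals (counting error only), and labels give the counts. The share falls from 24.1% in the narrowest class to 0.687% in the widest.

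H3K4me1-free regions lay away from promoters and more often outside genes. Only 102 (1.87%, 95% Wilson interval 1.54 to 2.26) came within 1 kb of the start site of a protein-coding gene, against 4.61% of H3K4me1-marked ESC-only regions, 12.9% of all union regions and 32.4% of regions acetylated in all 3 states. Between genes lay 43.0% of them (41.7 to 44.3), against 31.5% of H3K4me1-marked regions. Introns of protein-coding genes held 41.2% and exons 11.4%, against 47.9% and 13.8%. The median distance to the nearest protein-coding start site was 30304 bp, against 19194 bp for H3K4me1-marked regions. The excess outside genes held in every width class, from 40.6% against 30.7% between 300 and 500 bp to 48.8% against 32.7% between 1000 and 2000 bp. Their sequence was slightly poorer in GC, with a median of 46.2% in the central 500 bp against 47.4%, and poorer in CpG, with a median observed over expected ratio of 0.175 against 0.211. CpG sites were lacking altogether in the central 500 bp of 3.47% of H3K4me1-free and 1.76% of H3K4me1-marked regions.

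**Figure D2:**
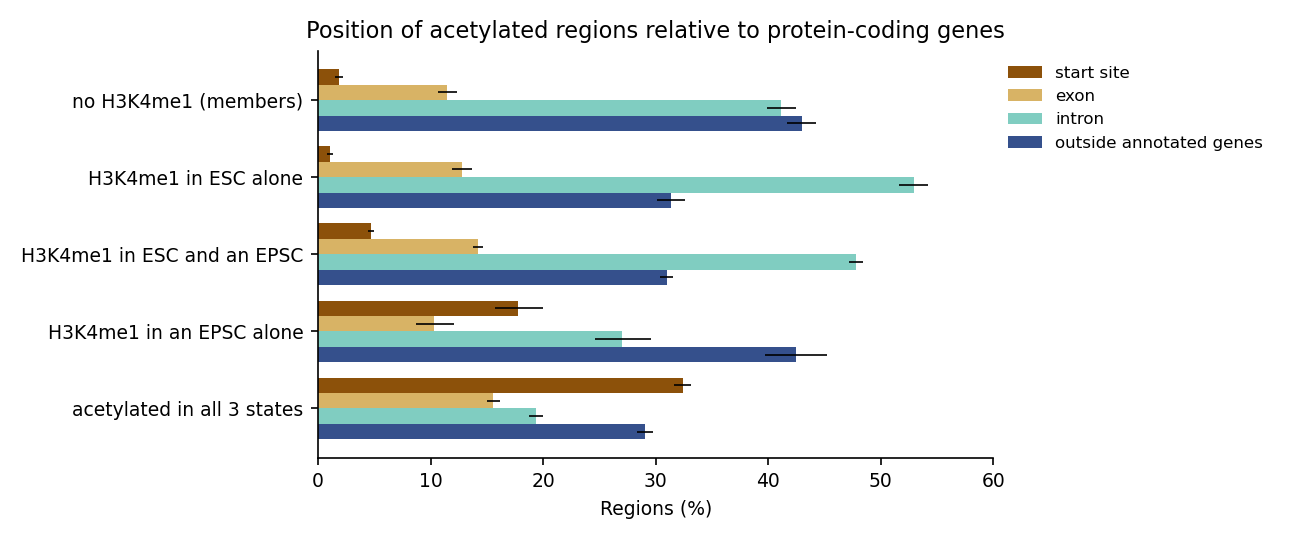
Position of acetylated regions relative to annotated genes, as the percentage of each class (95% Wilson intervals, counting error only): ESC-only regions without H3K4me1, ESC-only regions with H3K4me1 in the states named, and regions acetylated in all 3 states. Of the H3K4me1-free regions 43.0% lay outside annotated genes and 1.87% at a start site, against 29.1% and 32.4% of regions acetylated in all 3 states.

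Most H3K4me1-free regions nevertheless lay within 2 kb of an ESC H3K4me1 peak. No share for other sequence is given beside the distances below, so nearness is not shown to be particular to this set. The median distance to the nearest ESC H3K4me1 peak was 1638 bp, and 34.9% had one within 1 kb, 56.6% within 2 kb and 88.3% within 10 kb. The nearest D-EPSC and L-EPSC H3K4me1 peaks lay farther, with medians of 2560 bp and 2620 bp and shares within 1 kb of 19.4% and 18.6%. The ESC list is the longest for H3K4me1, with 107222 peaks against 102751 in D-EPSCs and 105306 in L-EPSCs. It also covers the most sequence, with 221.1 Mb against 187.5 Mb and 173.1 Mb. The part of list length or of covered sequence in this order was not tested. ESC H3K4me1 flanked 268 of the regions (4.90%) within 1 kb on either side, in contrast to 463 (8.47%) that were isolated from H3K4me1 of every state and from EPSC acetylation by more than 10 kb. At the edge of the rule, the nearest included regions touched an H3K4me1 peak with a gap of 0 bp and 196 lay within 100 bp of an ESC peak. The nearest excluded regions shared 1 bp with H3K4me1, and 412 shared at most 100 bp, summed over the 3 states.

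EPSC acetylation was slightly less often near H3K4me1-free than H3K4me1-marked regions. A D-EPSC H3K27ac peak lay within 10 kb of 54.1% of H3K4me1-free regions, against 58.2% of H3K4me1-marked ones, and an L-EPSC peak within 10 kb of 47.3% against 50.0%. The median distances were 8557 bp and 11243 bp, against 7475 bp and 9984 bp. A peak of either EPSC was within 1 kb of 6.38%, against 9.47% of H3K4me1-marked regions, and the smallest gap was 2 bp. Another union region of any state lay within 1 kb of 29.1%, against 39.9% of H3K4me1-marked regions.

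**Figure D3:**
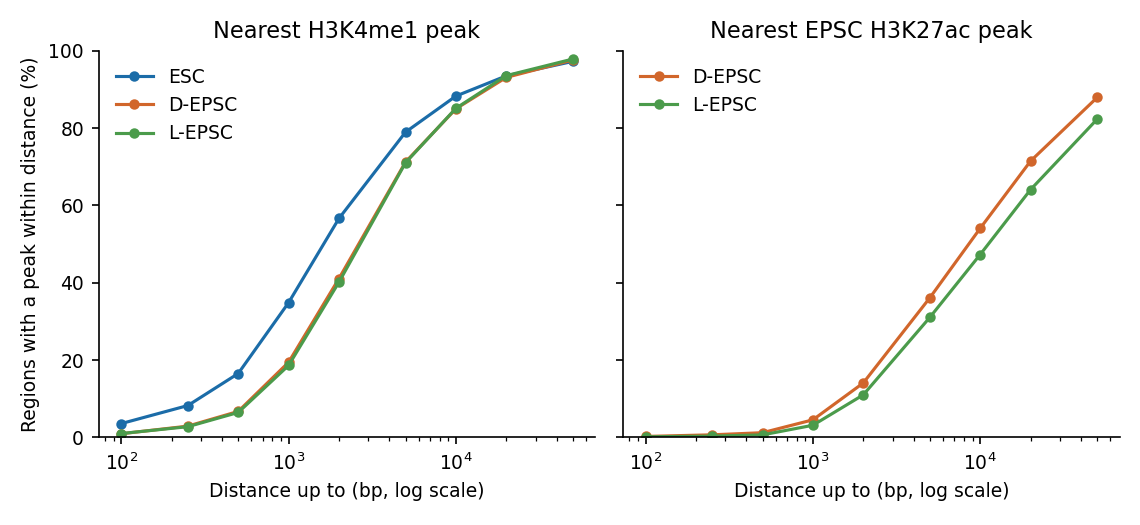
Cumulative percentage of the 5469 H3K4me1-free regions with a peak within a given distance (bp, log scale), for the nearest H3K4me1 peak of each state (left) and the nearest H3K27ac peak of each EPSC (right). At 1000 bp the H3K4me1 curve of ESCs stands at 34.9%, that of D-EPSCs at 19.4% and that of L-EPSCs at 18.6%.

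The 102 regions at start sites were a mixed group. Of these, 40 had the base composition of CpG islands (GC over 50% and a CpG ratio over 0.6), and 66 had ESC H3K4me1 within 1 kb. Over protein-coding genes, 0.488% of 22350 had an H3K4me1-free region at the start site. The 15 widest ran from 717 to 2083 bp. The widest, at chr2:87345961-87348043, covered the start site and untranslated sequence of Pramel6, a member of the Prame-like family. Its nearest ESC H3K4me1 peak was 1122 bp away, and the nearest D-EPSC and L-EPSC acetylation was 1062675 bp and 3693 bp away. Next in width were Gm9964 (1840 bp) and H1fnt, which encodes a testis histone (1214 bp, 536 bp from the start site). Fermt3, encoding the kindlin-3 integrin adaptor of blood cells, had a region of 1161 bp, and Slc22a14, a solute carrier gene, had 1147 bp with no ESC H3K4me1 for 33460 bp. Nlrp12 and Tarm1, both genes of immune cells on chromosome 7, had regions of 975 bp and 872 bp. The set also held 1700024P04Rik, C86695, Xirp1, which encodes an actin-binding protein of muscle, and Kcnj12, a potassium channel gene, at 928, 895, 879 and 772 bp. Sharpin and Maf1 shared a region of 806 bp, Usp3, a deubiquitinase gene, had 768 bp at 78.4% GC, and Zfp654 and Traf7 had 743 bp and 717 bp. Of the 15, Sharpin, Kcnj12, Xirp1 and C86695 had ESC H3K4me1 nearest, from 207 bp at Xirp1 to 350 bp at C86695. H1fnt was the one that held a copy of the shared sequence described below.

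Of the 5 widest isolated regions, 1 overlapped a protein-coding gene. The widest, at chr1:13164198-13166345 (2148 bp), lay over an exon of Ncoa2, a nuclear receptor coactivator gene, with the nearest start site that of Prdm14, 46954 bp away. ESC H3K4me1 was 12272 bp away, and D-EPSC and L-EPSC acetylation 26330 and 26342 bp. The others lay outside protein-coding genes, at chr16:22212991-22214615 (1625 bp, nearest start Igf2bp2), chr8:114711954-114713559 (1606 bp, Gm6793), chr2:87261673-87263183 (1511 bp, Olfr1123) and chr8:66030204-66031688 (1485 bp, Spock3). Of the flanked kind, the widest was at chr15:98786888-98789346, 2906 bp from the start site of Tuba1a, an alpha-tubulin gene, with ESC H3K4me1 188 bp away. The second was in an intron of Ebf1, a B-cell transcription factor gene, at chr11:44506270-44508180 (1911 bp). The other 3 lay outside protein-coding genes, with Usp9x, Bhmt and BC026585 as the nearest start sites. The regions near Spock3 and BC026585 held a copy of the shared sequence.

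H3K4me1-free regions held more repetitive sequence. Bases in 16-base words found at 20 or more places in the genome made up 39.0% of the central 500 bp on average, against 34.7% in H3K4me1-marked regions and 35.0% in all union regions. More than 50% of the window was repetitive in 29.7% of them (28.5 to 30.9), against 22.6% of H3K4me1-marked regions, and more than 90% in 3.15% against 1.37%. The difference was present in every width class, as in the regions up to 300 bp, with 38.9% against 34.3%. Reads from repeats can be placed at the wrong copy, and no filter on mapping quality is stated for these libraries. The part of this in the list was not tested.

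When the regions were aligned with each other, 238 (4.35%) shared at least 300 bp at 80% identity or more with another. The region with the most partners was at chr16:16160004-16161915, an intergenic region of 1912 bp 13060 bp from the start of 2310008H04Rik, with 81 partners at a median identity of 88.6%. A core of 482 bp common to its partners was searched in the genome, and so was the core of the next group, led by the region at chr15:75787913-75789187. The cores found 790 and 644 copies, and 363 copies of either set overlapped the other, which is 45.9% of the first and 56.4% of the second, so they were pooled as 1 family of 1068 copies. The letters CCAATCA were in 87.3% and TATAAAA in 86.2% of the copies of group 1. In group 1 copies acetylated in ESCs these shares were 87.7% and 85.6%, and in its other copies 87.0% and 86.8%. The groups were chosen because H3K4me1-free regions shared them, so their number among these regions is a description.

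A copy was present in 145 H3K4me1-free regions (2.65%), in 15 of 32266 H3K4me1-marked regions (0.0465%) and in 585 of all 70360 union regions (0.831%). It was in 192 (1.28%) of the regions acetylated in all 3 states. The share was higher in regions acetylated in ESCs and D-EPSCs but not L-EPSCs, with 218 of 6943. Of the 802 such regions that overlapped no H3K4me1, 170 held a copy, so the family was not particular to the ESC-only set. The 145 regions were wider than the other H3K4me1-free regions, with a median of 715 bp against 452 bp, and 80% lay between genes against 42.0%. ESC H3K4me1 was within 1 kb of only 9.66% of them against 35.5%, and beyond 10 kb of 46.9% against 10.8%. Among the isolated regions 47 of 463 (10.2%) held a copy. The widest of the 145 were at chr5:22848083-22850319 (2237 bp, 6301 bp from Gm17434), at the chromosome 16 region above, and in an intron at chr4:10812637-10814547 (1911 bp, 10992 bp from the start of 2610301B20Rik). With lists of equal length, of which only 403 H3K4me1-free regions were left, 40 (9.93%) held a copy, against 15 of 9895 H3K4me1-marked regions (0.152%). That cut keeps the widest peaks, and regions with a copy were wider than the others. The part of width in the 9.93% was not tested.

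A lack of H3K4me1 was also frequent at copies outside the set. It was less marked in regions acetylated in all 3 states and at copies acetylated in L-EPSCs. The family was chosen because H3K4me1-free regions shared it, so these copies are no independent check. Among regions acetylated in ESCs and D-EPSCs but not L-EPSCs, 170 of the 218 with a copy (78.0%) overlapped no H3K4me1 of any state, against 9.40% of the 6725 without a copy. Among regions acetylated in all 3 states the shares were 31 of 192 (16.1%) and 3.80% of 14780, and among those of D-EPSCs only they were 10 of 11 and 23.5% of 4232. Of the 900 copies outside H3K4me1-free regions, 418 were acetylated in ESCs over at least 100 bp and 43 of these (10.3%) had ESC H3K4me1, 369 were acetylated in D-EPSCs and 32 (8.67%) had D-EPSC H3K4me1, and 142 were acetylated in L-EPSCs and 40 (28.2%) had L-EPSC H3K4me1. The ESC share is raised by leaving out copies in H3K4me1-free regions, and was 7.62% of 564 over all 1068 copies. H3K4me1 of the same state lay under at least 100 bp of 81.4% of all ESC H3K27ac peaks, 81.1% of D-EPSC and 84.9% of L-EPSC peaks. These are not like measures, since the peaks were taken whole and the copies by themselves. The median width was 892 bp for ESC H3K27ac peaks, against 292 bp and 332 bp for copies of groups 1 and 2. A wider stretch has more bases in which to meet H3K4me1, and the part of this was not tested.

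Acetylation of the family outside the H3K4me1-free regions was least frequent in L-EPSCs. The 418 acetylated copies of ESCs were 46.4% of the 900, the 369 of D-EPSCs 41% and the 142 of L-EPSCs 15.8%. With lists of equal length the counts were 290, 343 and 142, so ESCs and D-EPSCs changed places and L-EPSCs were the lowest in either case. Over all 1068 copies the counts were 564, 369 and 142. The first is raised by the rule, since copies in H3K4me1-free regions were chosen as acetylated in ESCs only. Leaving those copies out lowers the ESC count alone, so the ESC share of the 900 is lowered by the rule in turn. With lists of equal length, all 1068 copies gave 324, 343 and 142. H3K4me1 covered 46, 36 and 48 of the 900 copies (5.11%, 4% and 5.33%). The profile around the 790 copies of group 1 includes those in H3K4me1-free regions. Centred on them and read in the direction printed above, ESC acetylation was most frequent 300 bp before the centre, at 52.2% of copies, and averaged 7.95% at 4 to 5 kb from it. The same position was highest in D-EPSCs (32.4%) and L-EPSCs (11.6%). H3K4me1 was lowest within 100 bp of the centre, at 3.04% for ESCs, 2.91% for D-EPSCs and 3.29% for L-EPSCs, and averaged 10.3%, 9.26% and 9.76% at 4 to 5 kb. In ESCs, acetylated copies had a median identity of 86.8% to the core of group 1 and the others 86.0%, so copies differed from the core, but how many of their reads could be placed uniquely is unknown.

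**Figure D4:**
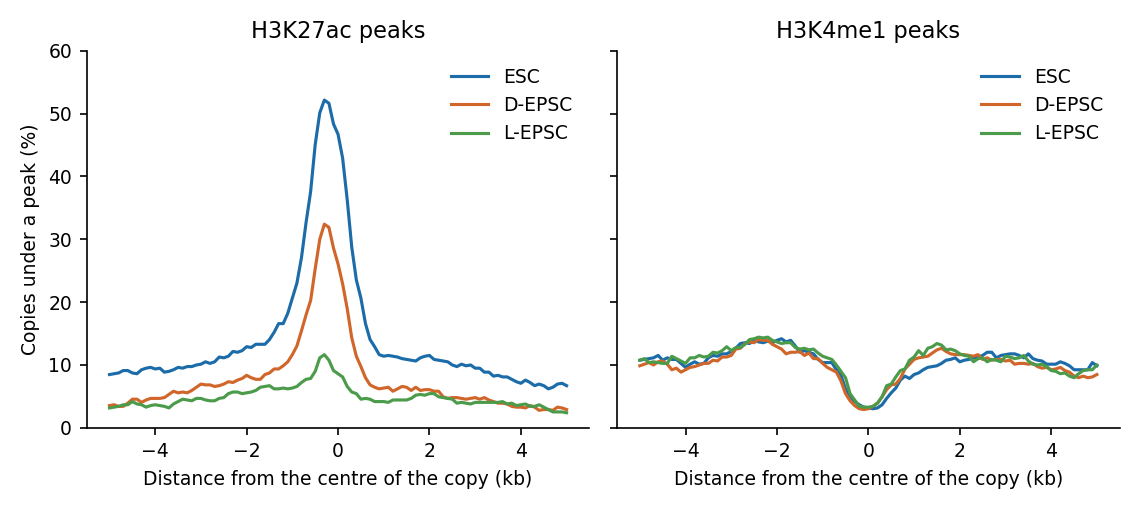
Percentage of the 790 group 1 copies under an H3K27ac peak (left) or an H3K4me1 peak (right) of each state, by distance from the centre of the copy in kb, with copies turned to the same direction. Acetylation was highest 300 bp before the centre (ESCs 52.2%, D-EPSCs 32.4%, L-EPSCs 11.6%), and H3K4me1 was lowest within 100 bp of the centre (3.04%, 2.91% and 3.29%); copies in H3K4me1-free regions are included.

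Motif letters were searched on both strands in the central 500 bp of each region, and the shares were set beside those of the 31031 ESC-only regions with H3K4me1 in ESCs. CCAATCA was in 7.44% of H3K4me1-free regions against 5.26%, and in 6.11% of all union regions. TGANTCA, the AP-1 letters, was in 18.2% against 14.7%, and in 15.96% of all union regions. Much of either difference lay in the regions with a family copy, a split chosen after seeing the data. Of the 145 regions with a copy, 62.8% held CCAATCA and 77.9% TGANTCA, and without them the ratios of the shares went from 1.41 to 1.13 and from 1.24 to 1.13. AAGATGGCG, the letters of YY1, was in 49 H3K4me1-free regions (0.896%) against 71 of the 31031 (0.229%), and in 1.39% of all union regions. None of the 49 held a copy of the family, and 38 of them were more than 50% repetitive.

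Several motifs, among them ones of promoters and of pluripotency factors, were less frequent. GCGCATGCG of NRF1 was in 3 H3K4me1-free regions (0.0549% against 0.187%, and 0.469% of all union regions), and GGGGCGGGG of SP factors was in 46 (0.841% against 2.08%, and 3.49%). A match is a description of the letters, not a bound site. CCGGAAGT of ETS factors was in 0.347% against 0.706%, and in 1.44% of all union regions. Esrrb, an orphan nuclear receptor of the naive network, had its letters TCAAGGTCA in 1.37% against 2.73%, and GGGTGTGG of KLF factors was in 4.04% against 6.98%. Over all union regions these stood at 2.37% and 6.07%. The octamer ATGCAAAT bound by Oct4 was in 2.01% against 2.55%, whereas ACAATGG of SOX factors was at 6.73% against 6.93%, and TTCCNGGAA of STAT factors at 1.87% against 1.96%. For these 3 the shares of all union regions were 2.51%, 6.90% and 1.92%. Other letters were less frequent too. The G-rich GGGGAGGGG, similar to the Zfp281 motif, was in 2.94% against 5.51%, and in 5.67% of all union regions. AGGGGGC of CTCF was in 5.17% against 6.90%, and the E-box CACGTG in 6.42% against 7.86%. Over all union regions these last 2 stood at 7.64% and 8.10%. Ratios for Esrrb, KLF and the octamer moved little without the family, to 0.517, 0.587 and 0.774. H3K4me1-free regions were narrower and lower in GC, and the part of either in these shares was not tested.

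**Figure D5:**
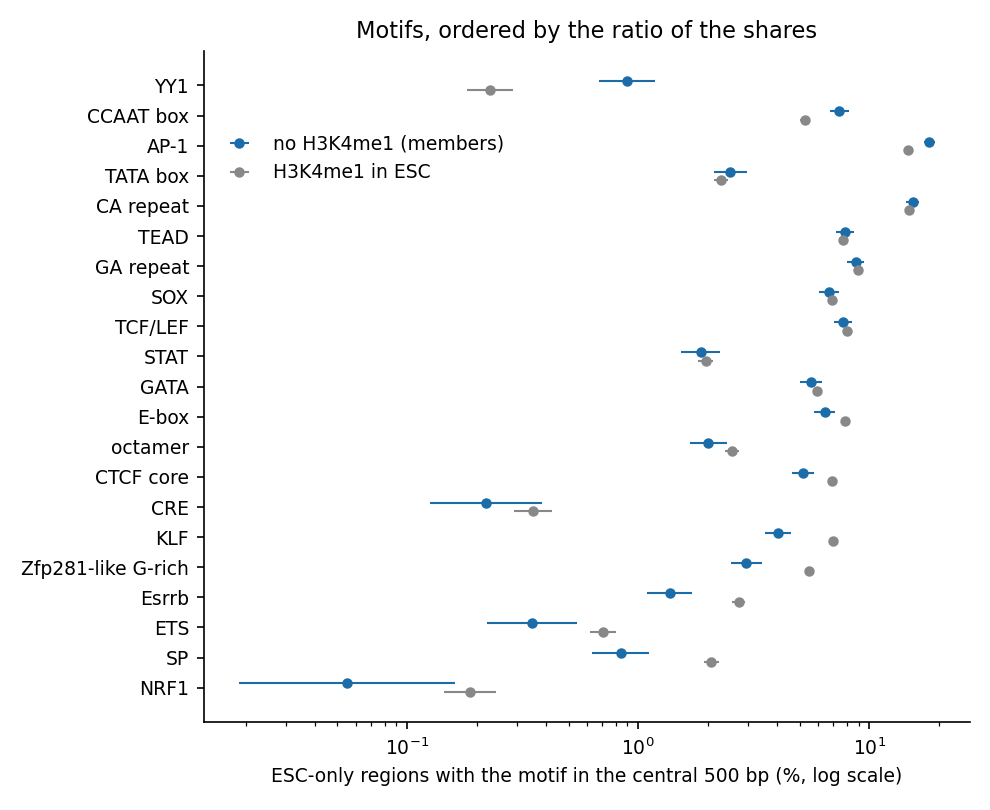
Percentage (log scale) of ESC-only regions whose central 500 bp held each motif, for regions without H3K4me1 and regions with H3K4me1 in ESCs; points are shares, bars 95% Wilson intervals (counting error only), and rows are ordered by the ratio of the shares. YY1, the CCAAT box and AP-1 lead the order, with 0.896%, 7.44% and 18.2% of H3K4me1-free regions, and Esrrb, ETS, SP and NRF1 close it.

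Genes of 13 lists on stem cell and lineage biology were searched for H3K4me1-free regions nearby. Of the 283 listed genes, 277 were found in the annotation, and 29 of these (10.5%) had an H3K4me1-free region in the gene or within 10 kb, against 14.5% of all protein-coding genes. At a start site there was 1, a region of 627 bp at chr8:26629563-26630189, 296 bp from the start of the shorter of the 2 annotated entries of Fgfr1, a fibroblast growth factor receptor gene. The listed genes were shorter, with a median span of 12.2 kb against 15.4 kb, and the part of length in the lower share was not tested. The lists also differed. Above the share of all genes were the Wnt (27.3%), LIF and STAT3 (26.7%), primitive endoderm (21.4%) and FGF and ERK (16.7%) lists. These shares rest on 3 to 6 genes each. Median gene spans in these 4 lists were 50.5, 31.9, 50.8 and 13.0 kb, against 15.4 kb for all protein-coding genes. The germline list, with a median of 54.9 kb, had no gene with a region. The part of gene length in the differences between lists was not tested. The other lists were below it. Of 30 pluripotency factors 4 had a region nearby, namely Tfcp2l1, Dppa4, Tdgf1 and Mycn. Of 21 formative and primed epiblast genes 2 did (Dnmt3l and Eomes), of 17 trophoblast genes 2 (Eomes and Tead4, the latter with 4 regions) and of 14 primitive endoderm genes 3 (Hnf4a, Sparc and Cubn). Two-cell stage genes, germline genes under DNA methylation and Hox genes had none among the 19, 18 and 39 found. Imprinted genes had 2 of 29, which were Grb10, encoding a growth factor receptor adaptor, with 4 regions, and Impact. In the LIF and STAT3 pathway, which sustains naive pluripotency, 4 of 15 did: Il6st, the shared receptor subunit, Stat3, Ptpn11 and Tfcp2l1. The FGF and ERK pathway had 4 of 24, among them Fgfr2 with 10 regions, annotated here over 3009 kb, Fgfr1 with 2 and Fgf10 with 1. The Wnt pathway had the highest share, with 6 of 22 (27.3%) and a median span of 50.5 kb: Tcf7, Tcf7l2, Tnks, Rnf43, Znrf3 and Wnt9a. Glycolysis genes had 2 of 21 (Slc2a3 and Pfkfb3) and neural genes 2 of 19 (Tubb3 and Csmd1).

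H3K4me1-free regions were spread over all 20 chromosomes listed. Their share of ESC-only regions ran from 11.5% on chromosome 4 (318 of 2775) to 19.1% on chromosome X (62 of 325). Their share of all union regions ran from 6.45% on chromosome 4 to 9.11% on chromosome 16, with 7.51% on chromosome X. Most 100 kb windows with any held just 1 (2677 windows), and 10 windows held more than 5. The densest, on chromosome 11 from 22400001 to 22500000, held 12 of 210 to 852 bp around Tmem17, which encodes a ciliary membrane protein, and 51.6% of their central bases were repetitive. The next, on chromosome 12 from 4300001 to 4400000, held 9 in Ncoa1, a nuclear receptor coactivator gene, where 22.9% was repetitive. Ncoa1 had 14 within 10 kb over its span of 237 kb. A count of 7 was shared by 3 windows, of which the first was at Zap70 and Tmem131 on chromosome 1.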

How the data were processed

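ChIP-seq of H3K27ac and H3K4me1 was made in 15 samples, including 1 input per state. The authors trimmed reads with Trim Galore 0.6.3, aligned pairs to mm9 with Bowtie2 2.3.5, sorted with SAMtools 1.10 and called broad MACS peaks against input. Call thresholds and pooling of replicates are not given in the sources used here. The deposited lists hold peak positions and names, with no score or signal. A shared base counted as overlap. Members and lists were chosen with earlier results of these data known.

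Annotation was GENCODE M1 on the mm9 genome, and all coordinates are 1-based. Listed genes named otherwise there were matched through RefSeq synonyms. Named regions were the 15 widest at start sites, the 5 widest isolated and flanked ones, the 3 densest windows and regions within 10 kb of listed genes. Sequences were aligned with BLAST+ 2.17.0. Copies needed 200 bp at 75% identity, and hits within 50 bp were joined. The choice of shared sequences was made after seeing the data. Overlap code was tested on simulated data. Python 3.11.15, numpy 2.4.6 and matplotlib 3.10.9 were used. Wilson intervals cover counting error only. The result for 1 listed gene is not reported here.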

Additional observations from a re-analysis of the deposited data

How the results depend on the processing

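Of 44 recalculations of 5 values, 20 stayed within 1.5 times the count or within the 95% interval. For repetitive bases that interval was computed as if the mean share were a share of regions, so it is only a rough yardstick there. The number of H3K4me1-free regions moved to 3328 when H3K4me1 within 1 kb counted as overlap, 3310 with peaks of at least 500 bp, 2412 with the widest 50% of each list and 403 with lists of equal length. Median width moved to 522 bp when H3K4me1 had to cover 50% of the region, and with the same 3 shorter lists to 724, 1171 and 1357 bp. The share at start sites moved to 2.73% (50% covered), 0.901% (within 1 kb), 2.51%, 6.05% and 1.24% (the shorter lists), 1.41% and 3.78% (windows of 500 and 2500 bp) and 4.94% (all transcripts). With the shorter lists it stayed under that of H3K4me1-marked regions (5.98%, 7.26% and 5.16%). Repetitive bases moved to 40.3% (500 bp), 41.2% (equal length) and 26.7% (words at 50 places). The share with ESC H3K4me1 within 1 kb moved to 50.6% (50% covered), 22.9% (regions joined over 1 kb), 29.0% and 19.8% (500 bp and widest 50%) and 56.6% (within 2 kb). Leaving out regions with a family copy, chosen after seeing the data, moved none of the 5 values. Lower-case repeats were not run, since the genome sequence has none. No paired analysis was possible because replicates are not separate in the lists. Peak calls limit everything here, and depth is unknown.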

Other observations

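Acetylation without H3K4me1 was not particular to ESCs as a share. Of regions acetylated in D-EPSCs only, 1004 of 4243 (23.7%) overlapped no H3K4me1 peak, and of those in L-EPSCs only 381 of 1951 (19.5%), against 14.5% of ESC-only regions. In D-EPSCs and L-EPSCs together but not ESCs the share was 20.6% of 1656. Without H3K4me1, the median width was 357 bp for D-EPSC-only and 344 bp for L-EPSC-only regions, against 460 bp and 419 bp over all regions of either kind.

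The next groups of H3K4me1-free regions with alike sequence were of common repeats. The third core had 19865 copies and the fourth 71165, and they were in 23 and 17 H3K4me1-free regions. Of the copies acetylated in ESCs, 80.9% and 75.9% had ESC H3K4me1, those in H3K4me1-free regions included. Of the acetylated copies of the family described above, 10.3% did outside H3K4me1-free regions.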
